A study of Mus musculus with 6 samples.

Results

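The MS4A family of macrophages was described here through 8 mouse genes, Ms4a4a, Ms4a4b, Ms4a4c, Ms4a6b, Ms4a6c, Ms4a6d, Ms4a7 and Ms4a8a. The members were the rows of the deposited count table whose Ensembl identifiers carry these symbols, 8 of 57180 genes in the table, and all 8 passed the filter on low counts. RNA sequencing was done on libraries labelled as adipose tissue macrophages from white adipose tissue of wild-type mice. The series' design text names a sort for F4/80+CD11b+ cells, while the extraction protocol in the labels speaks of RNA from tissue, so how pure the cells were is not settled by the labels. Mice of the HFD+MGIG group received a high-fat diet and magnesium isoglycyrrhizinate (3 libraries), and mice of the HFD group received the high-fat diet without it (3 libraries). Magnesium isoglycyrrhizinate is the magnesium salt of an isomer of the licorice compound glycyrrhizic acid, given as a liver-protecting drug. The labels give neither dose, age nor duration and do not say whether each library came from its own animal, so p-values measure only the spread between these libraries. In such bulk samples, fewer cells of a type and less RNA per cell cannot be told apart.

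MS4A proteins cross the cell membrane several times and sit beside immune receptors, whose signalling they tune; the B-cell antigen CD20 and the beta chain of the high-affinity IgE receptor are relatives. In macrophages, MS4A4A associates with the fungal receptor dectin-1, and human variants near MS4A4A and MS4A6A have been linked to soluble TREM2. Mouse Ms4a6d has been described as a partner of the complement receptor Vsig4, and mouse Ms4a8a is induced by interleukin-4 together with glucocorticoid. Ms4a7 marks tissue macrophages, whereas mouse Ms4a4b is best known from T cells.

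The 8 genes lie within one stretch of mouse chromosome 19, chr19:11067471-11604849 in mm10, with 5 on the plus strand and 3 on the minus strand. The minus strand carries Ms4a8a (ENSMUSG00000024730, chr19:11067471-11081102), Ms4a7 (ENSMUSG00000024672, chr19:11321039-11336146) and Ms4a6d (ENSMUSG00000024679, chr19:11586604-11604849). The plus strand carries Ms4a4a (ENSMUSG00000101389, chr19:11375523-11392790), Ms4a4c (ENSMUSG00000024675, chr19:11404770-11427246), Ms4a4b (ENSMUSG00000056290, chr19:11443553-11467055), Ms4a6c (ENSMUSG00000079419, chr19:11469366-11482192) and Ms4a6b (ENSMUSG00000024677, chr19:11516512-11531256). By coding sequence, the closest relatives were Ms4a4b and Ms4a4c, identical at 91.7% of aligned bases. Ms4a6b and Ms4a6c were identical at 85.0%, Ms4a6b and Ms4a6d at 80.6%, and Ms4a6c and Ms4a6d at 77.0%. RefSeq promoter windows (GRCm38.p6, 250 bases before to 50 after the RefSeq start) were found for 7 of the 8 members, all except Ms4a6d. For Ms4a4c and Ms4a6b the RefSeq start lies inside the GENCODE gene, downstream of the gene start given above, and the window does not hold that start. The windows of Ms4a6b and Ms4a6c, the pair whose values ran closest together over the libraries, are shown first: Ms4a6b at chr19:11518309-11518608 and Ms4a6c at chr19:11469118-11469417, both on the plus strand. Capitals mark runs of at least 12 bases shared exactly within the pair, of which the longest has 48 bases.
Ms4a6b: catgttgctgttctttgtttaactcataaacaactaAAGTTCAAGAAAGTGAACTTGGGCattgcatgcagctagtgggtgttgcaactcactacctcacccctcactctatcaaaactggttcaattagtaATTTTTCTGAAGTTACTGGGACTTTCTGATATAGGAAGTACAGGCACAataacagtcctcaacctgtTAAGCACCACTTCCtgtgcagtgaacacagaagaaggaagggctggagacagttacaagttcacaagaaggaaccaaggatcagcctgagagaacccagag
Ms4a6c: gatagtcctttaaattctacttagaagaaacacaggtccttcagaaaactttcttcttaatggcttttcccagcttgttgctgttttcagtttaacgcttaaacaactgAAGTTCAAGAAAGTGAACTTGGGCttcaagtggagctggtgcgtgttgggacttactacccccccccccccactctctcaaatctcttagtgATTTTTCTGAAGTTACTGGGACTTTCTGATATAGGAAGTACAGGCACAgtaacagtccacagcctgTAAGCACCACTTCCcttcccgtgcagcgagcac

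The values of Ms4a4b and Ms4a4c ran farthest apart, but in HFD+MGIG both were at the level of the background described below. The windows of this pair, Ms4a4b at chr19:11443308-11443607 and Ms4a4c at chr19:11407411-11407710, both on the plus strand, are shown with the same marking. Shared runs that adjoin read as a longer stretch of capitals in the Ms4a4b window. The longest shared run of this pair has 20 bases. Promoter identity was 72.7% for Ms4a4b and Ms4a4c, against 84.4% for Ms4a6b and Ms4a6c, where the alignment paired 225 of the 300 bases.
Ms4a4b: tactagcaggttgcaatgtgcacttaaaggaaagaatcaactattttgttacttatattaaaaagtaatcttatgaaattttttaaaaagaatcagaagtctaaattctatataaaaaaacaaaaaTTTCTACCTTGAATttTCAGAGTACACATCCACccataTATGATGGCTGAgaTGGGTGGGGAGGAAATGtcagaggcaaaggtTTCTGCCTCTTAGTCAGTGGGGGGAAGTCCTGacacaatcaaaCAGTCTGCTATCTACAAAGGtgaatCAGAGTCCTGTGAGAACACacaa
Ms4a4c: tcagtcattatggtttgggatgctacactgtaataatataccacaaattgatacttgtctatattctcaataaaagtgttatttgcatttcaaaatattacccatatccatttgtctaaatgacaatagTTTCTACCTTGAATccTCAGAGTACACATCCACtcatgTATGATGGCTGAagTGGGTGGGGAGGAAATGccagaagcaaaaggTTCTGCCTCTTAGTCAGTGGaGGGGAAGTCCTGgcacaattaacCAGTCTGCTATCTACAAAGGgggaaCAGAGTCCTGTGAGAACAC

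A set of 6 short motifs of macrophage factors, chosen with these data in view, were searched on both strands of the windows. The PU.1 core GAGGAA was in the windows of Ms4a4b, Ms4a4c and Ms4a7 and in 28.3% of all 32851 RefSeq windows. The ETS form AGGAAGT, which can overlap the PU.1 core over the letters AGGAA, was in those of Ms4a6b, at 2 places, and Ms4a6c, and in 9.35% of all windows. The AP-1 motif TGANTCA was in the windows of Ms4a4b and Ms4a8a (7.81% of all), and the MAF half-site TGCTGAC in that of Ms4a8a (4.67% of all). The C/EBP motif TTGCNNAA (10.8% of all) and an IRF motif of paired GAAA cores (3.44% of all) had no match in the 7 windows.

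The libraries differed in depth and in background. Total counts ranged from 2214456 to 4904302 in HFD+MGIG and from 14437605 to 16740417 in HFD. Counts on gene families that macrophages do not use, such as olfactory and vomeronasal receptors, took 2.94% to 6.42% of the total in HFD+MGIG and 0.0624% to 0.280% in HFD. A background bound was therefore set for each gene, the 90th percentile of the counts per kb on these silent families times the gene's exon length. HFD+MGIG 2 stood apart, with the lowest total and the highest silent share. All 15 macrophage identity genes were above their bounds in the HFD+MGIG mean, and their summed level was 7386 to 18886 CPM in HFD+MGIG and 17324 to 19417 CPM in HFD. CPM scales counts to the total of the library.

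Per kb of exon, the family ran in the same order in HFD+MGIG and in HFD, led by Ms4a4a, the dectin-1 partner. Its level was 295 ± 90.8 CPM per kb in HFD+MGIG and 286 ± 34.7 in HFD (SD, n = 3 each), which ranked 96th in HFD+MGIG and 133rd in HFD among 21745 protein-coding genes. Ms4a6d followed with 84.6 ± 29.3 CPM per kb in HFD+MGIG and 87.2 ± 18.1 in HFD, then Ms4a6c with 65.1 ± 21.7 in HFD+MGIG and 60.6 ± 3.74 in HFD. Ms4a6b had 54.7 ± 17.6 CPM per kb in HFD+MGIG and 53.4 ± 0.726 in HFD, and Ms4a7 had 32.8 ± 11.7 in HFD+MGIG and 36.1 ± 1.95 in HFD. At the low end, Ms4a8a had 18.9 ± 3.73 CPM per kb in HFD+MGIG and 17.1 ± 2.28 in HFD, Ms4a4c had 5.85 ± 2.00 in HFD+MGIG and 11.7 ± 3.79 in HFD, and Ms4a4b had 4.20 ± 1.49 in HFD+MGIG and 0.838 ± 0.181 in HFD. In HFD, the ranges of neighbours in this order overlapped only between Ms4a8a and Ms4a4c. In HFD+MGIG they overlapped everywhere except between Ms4a4a and Ms4a6d and between Ms4a8a and Ms4a4c. The lead of Ms4a4a over Ms4a6b rests on exon length, 0.836 against 4.485 kb. In CPM the means were 246 for both genes in HFD+MGIG and 239 for both in HFD. The HFD+MGIG means of Ms4a4c and Ms4a4b lay near or below the 90th percentile of the silent families, 4.57 to 9.41 CPM per kb in these libraries.

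Ms4a4a was measured at 284, 159 and 296 CPM in HFD+MGIG libraries 1 to 3, against 206, 253 and 258 CPM in HFD libraries 1 to 3. Ms4a6b, expressed by myeloid and T cells in mice, had 333, 179 and 224 CPM in HFD+MGIG, against 241, 236 and 241 CPM in HFD. Ms4a6c had 178, 89.0 and 133 CPM in HFD+MGIG, against 127, 116 and 131 CPM in HFD. In each of these genes HFD+MGIG 2 was the lowest of the 6 libraries and the groups overlapped.

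Ms4a6d, the Vsig4 partner, had 191, 91.2 and 158 CPM in HFD+MGIG, against 133, 134 and 188 CPM in HFD. Ms4a7 had 194, 90.3 and 154 CPM in HFD+MGIG, against 159.6, 153 and 169.8 CPM in HFD. Ms4a8a had 40.5, 27.1 and 34.3 CPM in HFD+MGIG, against 27.9, 28.7 and 35.3 CPM in HFD. The groups overlapped in these genes too, again with HFD+MGIG 2 as the lowest library.

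**Figure D1:**
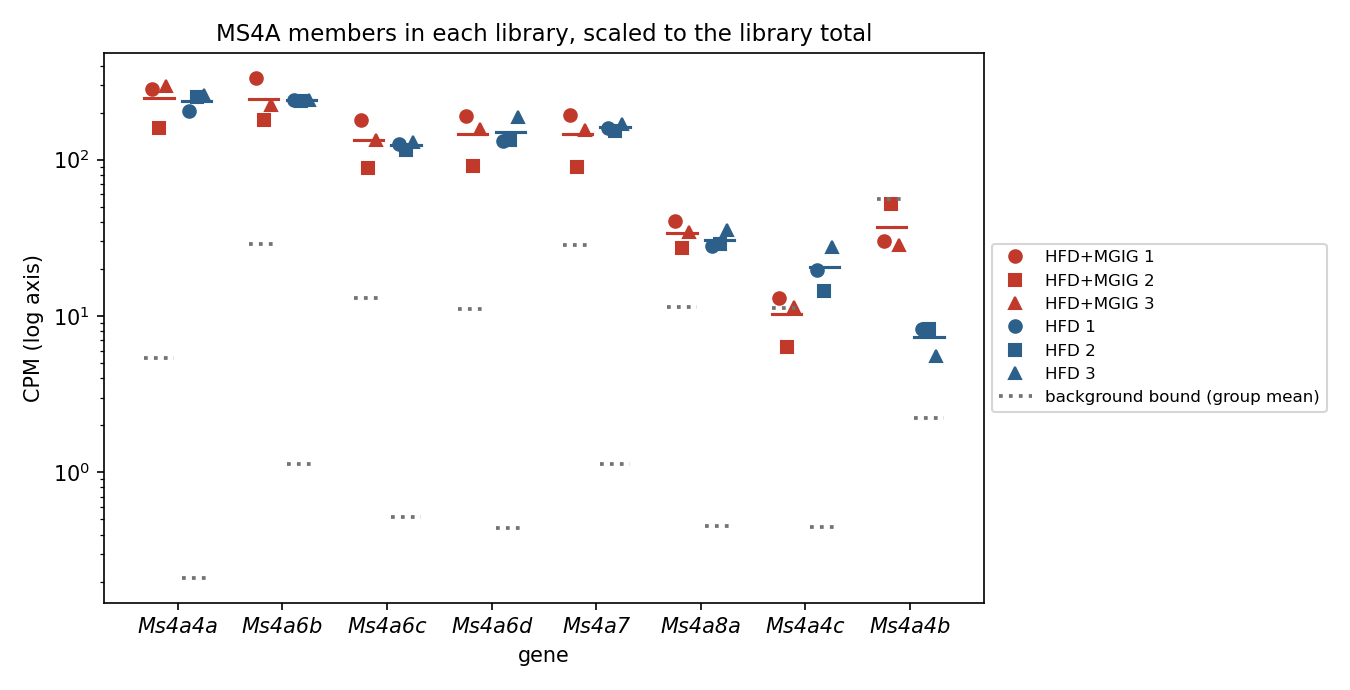
Level of each of the 8 MS4A members in CPM on a log axis, with HFD+MGIG libraries left of HFD libraries, 1 point per library, a solid line for the group mean and a dotted line for the background bound of the group. The groups overlap for 6 members, while Ms4a4b lies higher and Ms4a4c lower in HFD+MGIG, with the HFD+MGIG means of both, 36.9 and 10.3 CPM, below their bounds of 56.2 and 11.2 CPM.

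Ms4a4b and Ms4a4c were the members whose groups did not overlap in CPM. How many of all genes showed no overlap was not counted. Ms4a4b had 30.4, 51.9 and 28.3 CPM in HFD+MGIG, against 8.24, 8.31 and 5.53 CPM in HFD. Its highest value was in HFD+MGIG 2, the library with the highest silent share. Ms4a4c, found among interferon-induced transcripts of mouse leukocytes, had 13.01, 6.32 and 11.4 CPM in HFD+MGIG, against 19.7, 14.4 and 27.6 CPM in HFD.

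In edgeR's quasi-likelihood test across all 23055 filtered genes, 42.9% were called higher and 17.8% lower in HFD+MGIG at an adjusted p of 0.05. Of the 8 members, 1 was called higher and 1 lower. Ms4a4b rose, at a log2 fold change of 1.96 with an SE of 0.313 (edgeR adjusted p = 0.00028), and Ms4a4c fell by 1.25 ± 0.384 on the log2 scale (SE, edgeR adjusted p = 0.0140). The HFD+MGIG mean of Ms4a4b was 36.9 CPM against a background bound of 56.2 CPM, and that of Ms4a4c was 10.3 CPM against a bound of 11.2 CPM. The part of these background counts in the differences was not tested. The call of Ms4a4c was lost without HFD 3 (edgeR adjusted p = 0.0826), with a minimum of 5 CPM (0.0760) and with protein-coding genes only (0.0662).

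For the other members the log2 fold change in this fit lay between -0.41 for Ms4a7 and -0.14 for Ms4a8a, with edgeR adjusted p between 0.400 and 0.710. The median over all 23055 genes was 0.38, and over 2606 background-limited genes it was -0.91. This background-limited set holds multi-exon coding genes (2 or more exon blocks) outside the silent families, with a mean bound of at most 0.25 of their mean CPM. Both means run over all 6 libraries, so a gene in the set can lie nearer its bound in HFD+MGIG. Ms4a8a, for example, had a mean of 33.9 CPM in HFD+MGIG against a bound of 11.5 CPM. The scale of the fit on all genes thus sits apart from that of the background-limited genes. The members were therefore also set against these genes alone, with scaling factors of their own.

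On the background-limited scale all 6 members in the set rose in HFD+MGIG, while 4.45% of the 2606 genes were called higher and 6.25% lower. Ms4a4a had 558, 599 and 654 scaled CPM in HFD+MGIG, against 313, 388 and 397 in HFD, a log2 fold change of 0.72 with an SE of 0.143 (edgeR adjusted p = 0.0165). Ms4a6b had 654, 675 and 496 scaled CPM in HFD+MGIG, against 367, 362 and 371 in HFD, a log2 fold change of 0.73 with an SE of 0.148 (edgeR adjusted p = 0.0186). For neither gene did the groups overlap, though how many of the 2606 genes showed this was not counted.

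Ms4a4b and Ms4a4c did not meet the limit and were not tested there. With the same scaling factors, Ms4a4c had 25.6, 23.8 and 25.3 scaled CPM in HFD+MGIG, against 30.0, 22.1 and 42.4 in HFD, and the groups overlapped. They overlapped as well per 100 counts of macrophage identity genes, with 0.0748 ± 0.00939 in HFD+MGIG and 0.112 ± 0.0305 in HFD (SD, n = 3 each).

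Ms4a6c had 349.7, 335 and 295 scaled CPM in HFD+MGIG, against 193, 178 and 201 in HFD, a log2 fold change of 0.78 with an SE of 0.132 (edgeR adjusted p = 0.0120). Ms4a6d had 375, 343 and 349 scaled CPM in HFD+MGIG, against 202, 206 and 289 in HFD, where HFD 3 stood above the other HFD libraries. Its log2 fold change was 0.62 with an SE of 0.167 (edgeR adjusted p = 0.0499), the value nearest the threshold. Ms4a7, the tissue macrophage marker, had 381, 340.1 and 341 scaled CPM in HFD+MGIG, against 243, 234 and 261 in HFD, a log2 fold change of 0.52 with an SE of 0.125 (edgeR adjusted p = 0.0327).

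Ms4a8a had 79.5, 102 and 75.8 scaled CPM in HFD+MGIG, against 42.5, 44.1 and 54.4 in HFD, a log2 fold change of 0.84 with an SE of 0.190 (edgeR adjusted p = 0.0260). HFD+MGIG and HFD stood clear of each other in all 6 genes. The share of all 2606 genes whose groups stood clear in this way was not counted. The median log2 fold change of the 6 was 0.72, beside 0.03 over all background-limited genes. The fold was above 1 under every alternative run, but the number of calls depended on which library was left out. Without HFD 1, 0 of 6 members and 12 of 2606 genes were called higher, without HFD 2 0 and 19, and without HFD 3 2 and 17, beside 6 and 116 with all libraries. Without HFD+MGIG 1, 2 members and 106 genes were called higher, without HFD+MGIG 2 6 and 154, and without HFD+MGIG 3 2 and 71. With the 90th percentile background subtracted no gene of the 2606 was called, and the members' log2 fold changes lay between 0.62 and 1.22. In that fit Ms4a8a fell to 0.67 (edgeR adjusted p = 0.373), while the other members had larger fold changes than before. With trends on GC content and length removed, 113 genes were called higher, among them 3 members, Ms4a6b at 0.68, Ms4a6c at 0.50 and Ms4a7 at 0.54 on the log2 scale. In that fit Ms4a4a was at 0.27 (edgeR adjusted p = 0.454), Ms4a6d at 0.31 (0.375) and Ms4a8a at 0.54 (0.097), and none of these was called. With DESeq2's size factors in place of TMM the call of Ms4a6d was lost (edgeR adjusted p = 0.058).

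**Figure D2:**
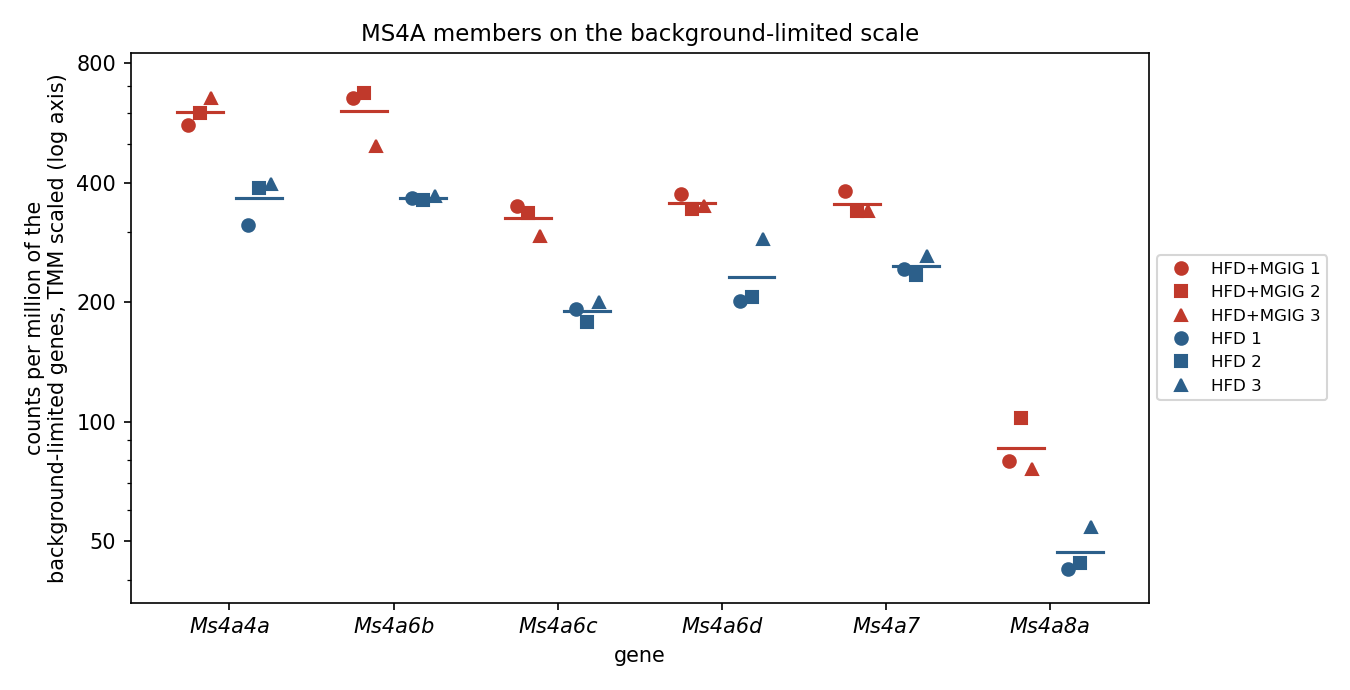
Scaled CPM on a log axis for the 6 members in the background-limited set, HFD+MGIG left of HFD, with 1 point per library and a line for the group mean. For each gene the 3 HFD+MGIG libraries lie above the 3 HFD libraries, as for Ms4a4a with 558 to 654 in HFD+MGIG and 313 to 397 in HFD.

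**Figure D3:**
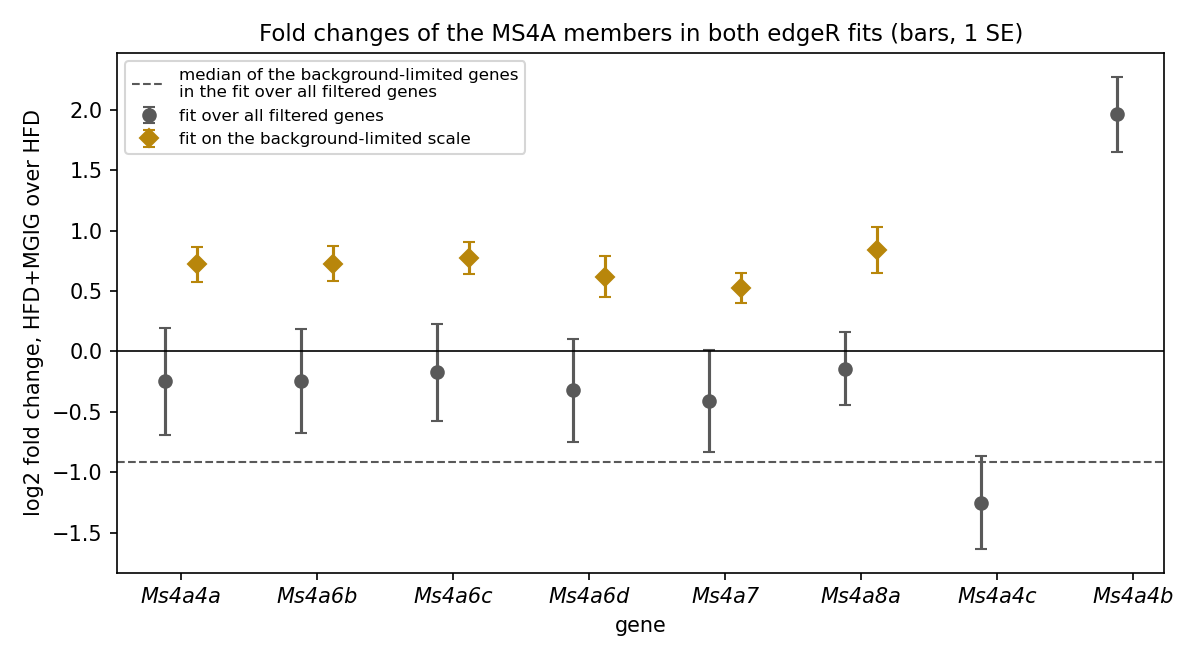
Log2 fold change of HFD+MGIG over HFD with its SE for each member in the fit on all filtered genes and, for 6 members, on the background-limited genes. The 6 members sit between -0.41 and -0.14 in the first fit and between 0.52 and 0.84 in the second.

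A GC difference moves with this result. The longest transcripts of the 6 members in the set had 39.3% to 47.0% GC, against a median of 49.2% in the background-limited genes. Of the 652 such genes with the lowest GC, 8.59% were called higher. The part of GC content in the members' rise was not tested beyond the fit with its trend removed.

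Shares within the family do not depend on the scaling of the library. Ms4a4a held 24.6% ± 3.33 of the summed member counts in HFD+MGIG and 24.5% ± 2.26 in HFD (SD, n = 3 each), and Ms4a6b 24.6% ± 2.61 in HFD+MGIG and 24.7% ± 1.69 in HFD. The groups did not overlap for 3 members. Ms4a4b held 4.20% ± 2.84 in HFD+MGIG and 0.767% ± 0.211 in HFD, Ms4a4c 1.01% ± 0.0952 in HFD+MGIG and 2.09% ± 0.542 in HFD, and Ms4a7 14.4% ± 1.22 in HFD+MGIG and 16.5% ± 0.685 in HFD. Each gave an exact two-sided permutation p of 0.1, the smallest that 3 against 3 libraries allow. Per kb, the groups overlapped for Ms4a7 as well. The Ms4a4b share differed by 3.44 percentage points, by 1.798 without HFD+MGIG 2 and by 1.96 with the median background subtracted.

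**Figure D4:**
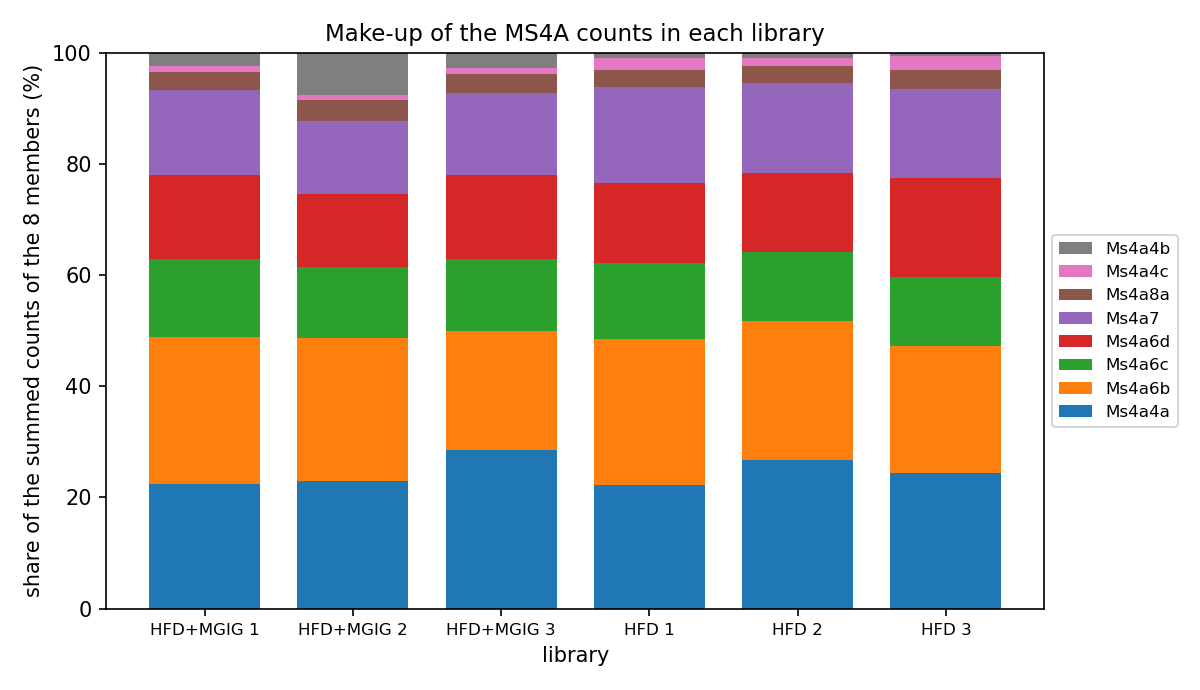
Share of each member in the summed counts of the 8 members, in percent, for the 3 HFD+MGIG libraries on the left and the 3 HFD libraries on the right. Ms4a4b takes 7.48% in HFD+MGIG 2 and between 0.523% and 0.895% in HFD.

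The family was also set against the 15 macrophage identity genes of the same library. The ratio of summed counts was 0.0669, 0.0940 and 0.0635 in HFD+MGIG, against 0.0532, 0.0530 and 0.0544 in HFD, 1.40 times higher with an exact two-sided permutation p of 0.1, the smallest possible. HFD+MGIG 2 held the highest ratio, and without it the fold was 1.22. None of the identity genes was called in either fit. In the background-limited fit 12 of them were tested, with a median log2 fold change of 0.21.

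Of 14 partner and signalling genes of the family, 9 were in the background-limited set, with 1 called higher, 1 lower and a median log2 fold change of 0.08. In the fit on all genes the 14 had 0 called higher and 4 lower (Jak2, Syk, Adam10 and Adam17), with a median of -0.75. In that fit 17.8% of all genes were called lower, as were 1123 of the 2606 background-limited genes, whose median was -0.91. Vsig4, the complement receptor, had 56.8, 81.6 and 65.4 scaled CPM in HFD+MGIG, against 16.6, 16.8 and 34.5 in HFD (log2 fold change 1.55, edgeR adjusted p = 0.0205). In CPM before this scaling, the bound of Vsig4 was 9.50 in HFD+MGIG, with 13.96 in HFD+MGIG 2, and 0.376 in HFD. The part of background in the rise of Vsig4 was not tested. Jak2, a cytokine receptor kinase, had 123, 114 and 156 scaled CPM in HFD+MGIG, against 198, 228 and 248 in HFD (log2 fold change -0.77, edgeR adjusted p = 0.0232). Neither pair of groups overlapped, and the share of all genes without overlap was not counted. Single libraries decided the calls. Vsig4 lost its own without HFD+MGIG 3 (edgeR adjusted p = 0.0618), HFD 1 (0.0839) or HFD 2 (0.0810). Jak2 lost its own without HFD+MGIG 1 (edgeR adjusted p = 0.0752), HFD 1 (0.0521), HFD 2 (0.0834) or HFD 3 (0.0759). Among 13 other MS4A superfamily genes in the table, the related Tmem176a and Tmem176b were in the background-limited set, with log2 fold changes of 0.04 and 0.06 and no call. In the fit on all genes, 5 of the 9 tested were called higher (Ms4a1, Ms4a2, Ms4a3, Ms4a12 and Ms4a15), beside 42.9% of all genes. The bound exceeded the HFD+MGIG mean in each of the 5. Ms4a14 was called lower, with 42.2, 23.9 and 38.9 CPM in HFD+MGIG, against 47.9, 59.9 and 57.2 CPM in HFD (log2 fold change -0.94, edgeR adjusted p = 0.0314). Its HFD+MGIG mean of 35.02 CPM was above its bound of 26.03 CPM, but in HFD+MGIG 2 its 23.9 CPM lay below that library's bound of 38.2 CPM. The fold change of Ms4a14 was near the median of -0.91 over the background-limited genes in the same fit. Ms4a4d, at 14.5 ± 4.80 CPM in HFD+MGIG and 18.95 ± 5.62 CPM in HFD (SD, n = 3 each), was not called (edgeR adjusted p = 0.119).

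Markers of other cells were measured beside these values. The 14 T and NK cell markers summed to 93.7 to 155 CPM in HFD+MGIG and 85.8 to 98.6 CPM in HFD, and 13 of the 14 lay below their bound in the HFD+MGIG mean. Endothelial markers summed to 472 to 856 CPM in HFD+MGIG and 2108 to 2533 CPM in HFD, with 5 of 6 called lower in the background-limited fit. Adipocyte markers summed to 1699.7 to 2524 CPM in HFD+MGIG and 4007 to 6461 CPM in HFD. Fibroblast markers summed to 1342 to 2000.3 CPM in HFD+MGIG and 2622 to 4064 CPM in HFD, with 3 of 7 called lower in the background-limited fit. Recruited monocyte markers summed to 786 to 1449.9 CPM in HFD+MGIG and 2083 to 2221 CPM in HFD. In the background-limited fit, however, the 5 tested had a median log2 fold change of 0.10, with 1 called lower. Sums of the 12 resident macrophage markers overlapped between the groups. All 12 were tested in the background-limited fit, with 9 above 0, a median of 0.31 and 1 called higher. The sums of the dendritic cell and B cell lists were also lower in HFD+MGIG without overlap, while those of the mast cell and neutrophil lists overlapped. The 2 dendritic cell markers in the background-limited set had a median log2 fold change of 0.02, and no B cell marker was in that set. All 4 neutrophil markers in the background-limited set had a log2 fold change above 0, with a median of 0.51 and none called. The part of these cells in the members' differences was not tested.

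The profiles over the 6 libraries were compared as the root mean square difference of centred log2(CPM + 1) values, with the family and with 9885 other protein-coding genes of at least 10 CPM. Within the family the smallest difference was 0.09, between Ms4a6b and Ms4a6c, and the largest 1.69, between Ms4a4b and Ms4a4c. For Ms4a4b and Ms4a4c the HFD+MGIG means lay below the background bounds, 36.9 against 56.2 CPM and 10.3 against 11.2 CPM. The part of background in this difference and in the choice of their nearest genes was not tested. Nearest to Ms4a4a were Coq8b, Glb1l and Tbxas1, and to Ms4a6b Ctsl, Rdh14 and Hnmt. Nearest to Ms4a6d were Cd209g, Pdgfc and Gm21188, and to Ms4a7 Gdpd1, Clec4e and Gm21188. Ms4a4b ran nearest to Amn1, Atr and Invs, and Ms4a4c to Pgm1, Tti1 and Dock11. Ms4a6c ran nearest to Tmem199, Hist1h2bc and Letmd1, and Ms4a8a to Kif3a, Ercc4 and Ormdl1.

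Reads of some members could be shared with other genes. Of the stretches of 50 bases in Ms4a6c transcripts, 51.4% also occurred in other genes, mostly the gene BE692007 on the opposite strand, which overlaps 1088 exon bases. The counting is not stated to use strand, so reads of Ms4a6c and BE692007 in the overlapping part cannot be told apart. For the other members this share was at most 8.19%, in Ms4a4c, whose shared stretches lay mostly in Ms4a4b.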

How the data were processed

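Estimated counts for 57180 Ensembl genes, deposited by the authors, were rounded to whole numbers here. Per the submitters' processing notes, fastp, HISAT2, StringTie and build mm10 were used; the program that made the counts is not given in the sources used here. Per the labels' protocols, libraries were made from total RNA with a low-input amplification kit. GENCODE M21 gave symbols and exon lengths for 51884 genes, and RefSeq gave the promoters. Groups were compared by quasi-likelihood testing in edgeR (version 4.0.16, limma 3.58.1, R 4.3.3; TMM, filterByExpr, Benjamini-Hochberg over all genes fitted). The tests were also run on counts simulated from the HFD libraries. No difference in background was simulated, so that run does not cover the background of the HFD+MGIG libraries. DESeq2 1.42.0 and limma voom were alternatives. The second fit used the 2606 background-limited genes. Errors are SDs over 3 libraries, or SEs of the fit. Scaled CPM uses library totals and TMM factors of the 2606 genes.

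The members, lists and tests were chosen with earlier results of these data known. The naming rule covered all members, other MS4A genes that passed the filter, up to 4 genes per list by p, fixed macrophage, partner and lymphocyte genes, and the 3 most similar genes per member. Of the list genes, those printed were selected with their values in view.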

Additional observations from a re-analysis of the deposited data

How the results depend on the processing

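Among all filtered genes 14015 were called; 6156 were called with a minimum of 5 CPM in 3 libraries, 6726 with protein-coding genes only and 23155 with no filter, and leaving out 1 library gave 11781 to 17477. Members called in that fit numbered 1 in place of 2 with the 5 CPM minimum and with protein-coding genes only. They numbered 1 to 2 with 1 library left out, and a lost call was always that of Ms4a4c. Ms4a4b was called under all 14 alternatives, but none of them subtracts background. Its HFD+MGIG mean of 36.9 CPM lay below its bound of 56.2 CPM, so these alternatives cannot separate its rise from background. The log2 fold change turned positive with the 5 CPM minimum (Ms4a4a 0.14, Ms4a6b 0.13, Ms4a6c 0.20, Ms4a6d 0.051, Ms4a8a 0.25), with library totals (Ms4a4a 0.066, Ms4a6b 0.057, Ms4a6c 0.12, Ms4a8a 0.18), with protein-coding genes only (Ms4a4a 0.15, Ms4a6b 0.15, Ms4a6c 0.22, Ms4a6d 0.067, Ms4a8a 0.27) and without HFD+MGIG 2. With 1 library left out it ranged from -0.43 to 0.023 for Ms4a4a, from -0.53 to 0.083 for Ms4a6c and from -0.37 to 0.037 for Ms4a8a. None of these positive values was past the threshold. The cause was not tested.

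On the background-limited scale 6 members were called. DESeq2's size factors gave 5, without Ms4a6d. Leaving out 1 library gave 0 to 6, while over all 2606 genes it gave 12 to 154 called higher in place of 116. All 6 members were at an unadjusted edgeR p under 0.05 each time, as were 483 to 693 of the 2606 genes. The replicate block left 3 of 6 and 91 genes called higher. Whether replicate numbers pair the samples is not settled. Same-numbered libraries correlated at 0.048, 0.260 and 0.079 in their deviations from the group means, and differently numbered ones at -0.225 to 0.170. Of the alternatives chosen after seeing the data, the subtracted 90th percentile background left 0 of 6 and 0 of all 2606 genes in edgeR (5 members and 391 genes at an unadjusted p under 0.05), and removed GC content and length trends left 3 members and 113 genes called higher. Log2 fold changes stayed above 0 in every alternative on this scale. At these depths 1 count was worth 0.204 to 0.452 CPM in HFD+MGIG and 0.0597 to 0.0693 CPM in HFD.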
